A study of Arabidopsis thaliana with 11 samples.

Results

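The PYR/PYL proteins are the intracellular receptors of abscisic acid, the hormone that closes stomata when water is short. A receptor that has bound the hormone folds a gate loop over it and then docks onto a clade A protein phosphatase of type 2C (PP2C) and blocks it. The phosphatase no longer holds back the SnRK2 kinases, which then act on ion channels of the guard cell and on transcription factors of the ABF family. Guard cells are the best-known site of this pathway in the leaf. The 9 receptor genes described here are PYR1 (AT4G17870), PYL1 (AT5G46790), PYL2 (AT2G26040), PYL4 (AT2G38310), PYL5 (AT5G05440), PYL6 (AT2G40330), PYL7 (AT4G01026), PYL8 (AT5G53160) and PYL9 (AT1G01360), chosen by name and locus code, out of 33602 genes in the table. All 9 passed the minimum for testing, as did 29850 genes in all. PYL3, PYL10, PYL11, PYL12 and PYL13, the other members of the family, were not part of the set and are given as a separate list of 5.

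The libraries came from fluorescent protoplasts sorted out of the shoots of 10-day-old Arabidopsis seedlings, all in the Columbia background. All groups alike were grown at 25 °C in 16 h of light and 8 h of dark, and their tissue spent 2 h in the digesting solution before sorting. SSY (SPCHp::SPCH-YFP, 3 libraries) is labelled as meristemoid mother cells and young meristemoids, MG (MUTEp::nucGFP, 2 libraries) as late meristemoids and young guard mother cells, FGF (FAMAp::GFP-FAMA, 2 libraries) as guard mother cells at maturity together with young guard cells, and E1728G (the enhancer trap E1728::GFP, 2 libraries) as mature guard cells. ML1Y (ML1p::YFP-RCI2A, 2 libraries) takes the whole epidermis and served as the reference. No hormone was given. SSY and FGF plants carry an added fusion copy of SPCH or FAMA, so these sorts are not of wild-type cells. Reads of the added copies may count towards SPCH and FAMA, so a high FAMA value in FGF is no check of cell identity. FAMA was highest in FGF (mean 14.47, against 8.59 in ML1Y), but SPCH had its lowest mean in SSY, at 5.58, with 6.34 in MG, 7.47 in FGF, 6.09 in E1728G and 6.14 in ML1Y. The SSY libraries thus go against their label on the gene the line is built on, and SSY below stands for the libraries labelled so. Whether replicates came from separate cultures is not stated, so p-values measure the spread between these libraries, which may be technical. All levels are the log2 normalized values the authors deposited, differences are on the same log2 scale, and depth is unknown.

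The sorted populations were checked against markers fixed as lists of guard cell, early lineage, epidermis, mesophyll and vasculature genes. The log2 of the summed level of 8 guard cell markers was 18.71 to 20.72 in SSY, 17.03 to 17.33 in MG, 20.07 to 20.79 in FGF, 20.53 to 20.92 in E1728G and 16.80 to 17.04 in ML1Y. The myrosinase TGG1 was by far the highest of the 8 (mean 19.66 in SSY and 16.85 in ML1Y), so these sums mostly follow it. Gene by gene, the median difference of the 8 markers from ML1Y was 0.88 in SSY (2 passed), 0.38 in MG (0 passed), 3.19 in FGF (5 passed) and 2.83 in E1728G (4 passed). The largest of the FGF differences, 5.88, was that of FAMA, which may hold reads of the added copy. In SSY all 8 differences were positive, from 0.14 to 2.96, and the 2 that passed were TGG1 and FAMA. The smallest were those of HT1 (6.04, against 5.55 in ML1Y), SLAC1 (8.73, against 8.59) and MYB60 (7.79, against 7.15). The highest SSY library reached 7.40 for HT1, 10.15 for SLAC1 and 9.07 for MYB60. EPF2, an early lineage peptide, stayed under a linear value of 10 in every library of SSY, FGF, E1728G and ML1Y. The 5 early lineage markers together reached 11.28 to 14.21 in MG, against 8.78 to 10.43 in SSY and 8.74 to 8.76 in ML1Y. In SSY 4 of the 5 had positive differences from ML1Y (median 0.32) and 0 passed. The 6 mesophyll markers summed to 13.29 to 14.76 in the 4 stages and to 18.24 to 18.53 in ML1Y, and the 4 vasculature markers to 6.90 to 7.96 in the stages and 8.31 to 8.35 in ML1Y. The 4 epidermis markers summed to 11.27 to 13.59 in the stages and to 10.83 to 11.17 in ML1Y. ML1Y thus had higher mesophyll and vasculature sums, and lower epidermis sums, than any stage library. The word epidermis below stands for the ML1Y libraries, which are labelled so. The SSY libraries also had a narrower spread of values over genes (interquartile range over all genes with a value 2.45 to 2.55 log2 units, against 2.83 to 3.51 in the others). The part of these differences in any receptor result was not tested.

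The 9 genes encode the same gate loop with different codons, which is why that stretch is shown side by side before their levels. Each coding sequence of the RefSeq annotation (assembly TAIR10.1) held the 5 codons of the gate loop once. They are printed in capitals with 12 bases on either side.
PYR1: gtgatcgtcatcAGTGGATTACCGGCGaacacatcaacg
PYL1: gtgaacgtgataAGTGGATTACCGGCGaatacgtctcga
PYL2: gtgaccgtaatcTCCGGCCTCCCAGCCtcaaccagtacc
PYL4: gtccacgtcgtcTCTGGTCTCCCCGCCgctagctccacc
PYL5: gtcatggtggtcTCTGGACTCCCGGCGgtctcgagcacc
PYL6: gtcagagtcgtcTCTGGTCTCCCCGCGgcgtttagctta
PYL7: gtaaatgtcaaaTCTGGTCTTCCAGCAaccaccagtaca
PYL8: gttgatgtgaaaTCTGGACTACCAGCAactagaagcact
PYL9: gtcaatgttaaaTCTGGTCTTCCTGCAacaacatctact

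All 9 encode the same gate, yet of the 15 gate bases PYL1 differed from PYR1 at 0 and PYL2 at 8. Over whole coding sequences the 36 pairs of receptors were 55.9% to 81.4% identical, with PYL7 and PYL9 the most alike and PYR1 and PYL1 next at 75.2%. PYL7, PYL8 and PYL9 have 3 coding exons each, and the other 6 receptors have 1. The longest run of identical coding bases between any pair was 32, in PYL7 and PYL9, and is shown in capitals because it is where short reads of these genes could be confused.
PYL7: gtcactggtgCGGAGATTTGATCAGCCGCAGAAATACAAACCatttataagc
PYL9: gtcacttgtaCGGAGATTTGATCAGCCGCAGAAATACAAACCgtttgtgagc

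Nothing in the labels gives the read length or how reads that map to several genes were handled, so values of PYL7 and PYL9 carry that uncertainty. PYL7 also overlaps the protein-coding gene AT4G01030 on the opposite strand over 571 bases, and a long non-coding RNA gene, not analysed here, over 269 bases. No label says whether the libraries keep strand, so reads of PYL7 and AT4G01030 in that stretch cannot be told apart. The values of PYL7 and AT4G01030 had a Pearson correlation of 0.82 over the 11 libraries, which share their depth and normalization. AT4G01030 was highest in SSY replicate 2 (11.61) and lowest in SSY replicate 3 (8.63), the same libraries in which PYL7 had its highest and lowest values.

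Across the sorted populations 2 of the 9 receptors, PYL2 and PYL6, passed a test for any difference between groups. Each was high in the late stages FGF and E1728G. An F test over the 5 groups gave an adjusted p of 0.0109 for PYL2 and 0.0172 for PYL6 (limma-trend, Benjamini-Hochberg over all 29850 genes). It called 6.21% of all genes tested. Over the 4 lineage stages alone the adjusted p was 0.0143 for PYL2 and 0.0212 for PYL6, in a test that called 3.27% of genes. PYR1 came next over the 5 groups (adjusted p = 0.116), then PYL1 (adjusted p = 0.23), and the other 5 receptors had adjusted p between 0.528 and 0.867. The plot of levels by library shows all 9 receptors.

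**Figure D1:**
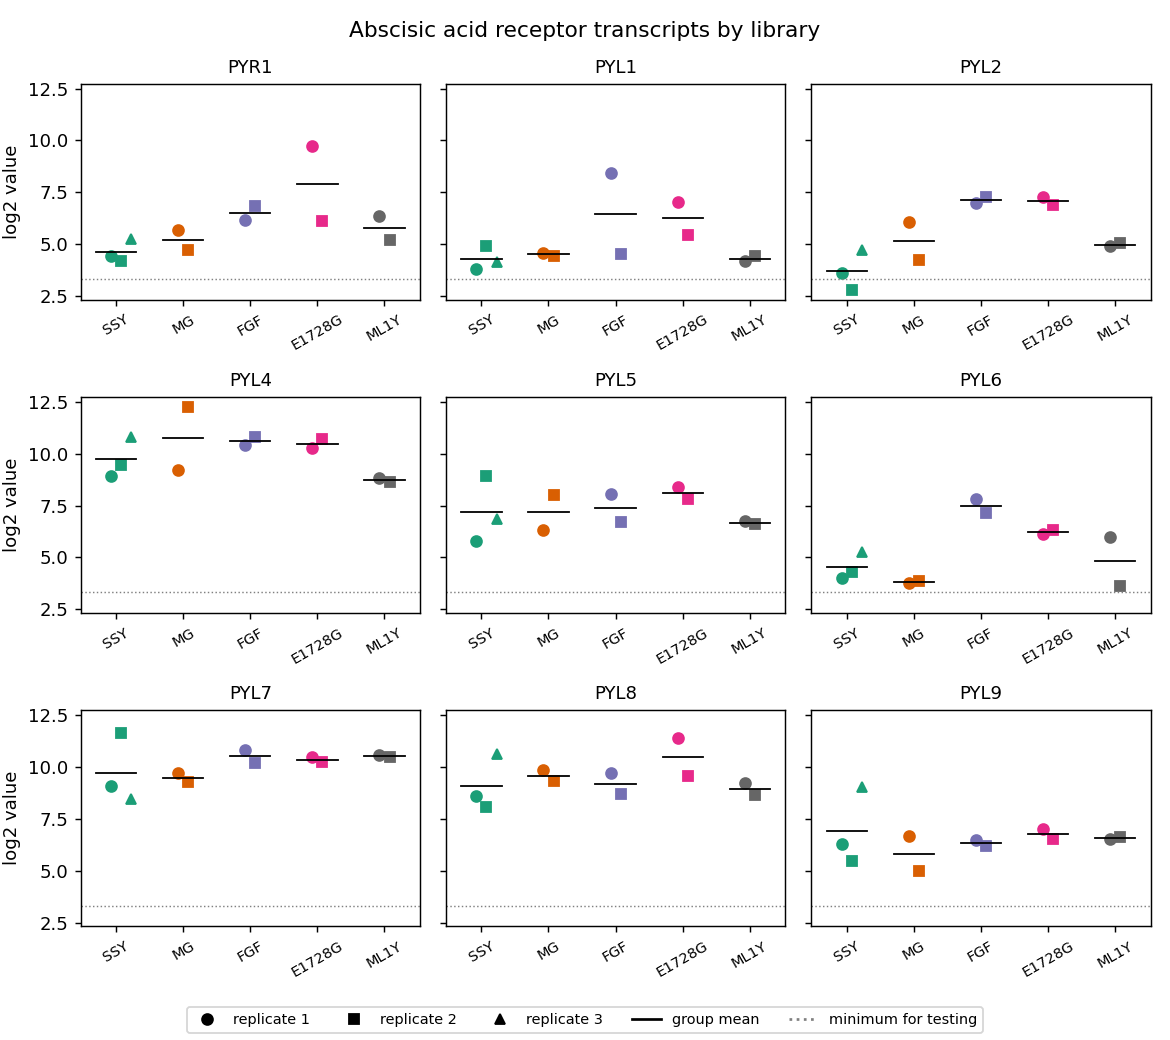
Log2 normalized value of each receptor in each library, by sorted population, with replicates as separate symbols and the group mean as a line. PYL2 and PYL6 sit higher in every FGF and E1728G library than in any other library, while PYL7 and PYL9 show no such split.

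PYL2 belongs with PYR1 and PYL1 to the receptors that pair up in the absence of hormone, and it is known from mutant studies as a receptor that can carry the abscisic acid response of guard cells. Its level was 7.01 and 7.26 in FGF and 7.25 and 6.90 in E1728G. In SSY it stood at 3.60, 2.80 and 4.73, in MG at 6.08 and 4.22, and in ML1Y at 4.90 and 5.05. The 4 late libraries were above the 7 others without overlap and lay within 0.36 log2 units of each other, as the lowest was 6.90 and the highest 7.26. MG was split, with replicate 1 above both epidermis libraries and replicate 2 below them.

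The comparisons of FGF and of E1728G with SSY, and of E1728G with MG, were added after the values had been seen, so all 3 receptor calls between pairs of groups come from added comparisons. Against SSY, PYL2 rose in FGF by 3.43 ± 0.61 on the log2 scale, or 10.8-fold (SE of the fit, limma adjusted p = 0.0147). In E1728G it rose by 3.37 ± 0.61 (adjusted p = 0.0142). Against the epidermis the differences were 2.16 ± 0.67 in FGF (adjusted p = 0.129) and 2.101 ± 0.67 in E1728G (adjusted p = 0.135), about 4.47-fold and 4.29-fold, and did not pass. Fitted with the 2 groups alone, these differences passed, with adjusted p of 0.0257 in FGF and 0.0351 in E1728G, while those against SSY then missed (adjusted p = 0.0784 in FGF and 0.0786 in E1728G), as did every other gene tested in those fits. Against MG the difference was 1.99 ± 0.67 in FGF (adjusted p = 0.322) and 1.93 ± 0.67 in E1728G (adjusted p = 0.265), and without MG replicate 2 it was 1.06 and 1.00 in the same order. The call against SSY ended in FGF without FGF replicate 1 (adjusted p = 0.0677) or replicate 2 (adjusted p = 0.12), and in E1728G without SSY replicate 2 (adjusted p = 0.0508) or E1728G replicate 1 (adjusted p = 0.141).

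PYL6, a receptor that occurs as a single molecule and is known to bind the jasmonate factor MYC2, had 7.79 and 7.13 in FGF and 6.12 and 6.32 in E1728G. In SSY it had 4.03, 4.32 and 5.28, in MG 3.76 and 3.88, and in ML1Y 5.99 and 3.65. FGF lay above E1728G without overlap, and the late groups lay above all other libraries, although ML1Y replicate 1 came within 0.13 of the lower E1728G library. PYL6 rose in FGF against SSY by 2.92 ± 0.61, or 7.55-fold (limma adjusted p = 0.0288). The largest of its differences, 3.64 ± 0.67 in FGF against MG (12.4-fold), missed the threshold at an adjusted p of 0.0536, in a comparison that called 0.137% of genes. Against ML1Y it was 2.64 ± 0.67 in FGF (adjusted p = 0.0574) and 1.40 ± 0.67 in E1728G (adjusted p = 0.404).

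E1728G and FGF were not told apart for PYL6, with a log2 difference of -1.24 ± 0.67 (limma adjusted p = 1). In E1728G against SSY and MG its differences were 1.67 ± 0.61 (adjusted p = 0.181) and 2.39 ± 0.67 (adjusted p = 0.139). The FGF call against SSY ended in a fit of these groups alone (adjusted p = 0.0827) and without SSY replicate 1 (adjusted p = 0.057), SSY replicate 2 (adjusted p = 0.0797), FGF replicate 1 (adjusted p = 0.177) or FGF replicate 2 (adjusted p = 0.12). Without ML1Y replicate 1, the higher epidermis library, the FGF difference from the epidermis was 3.81 and passed (adjusted p = 0.0234), and without ML1Y replicate 2 it was 1.47 (adjusted p = 0.687). The E1728G difference from the epidermis was 2.57 without ML1Y replicate 1 (adjusted p = 0.11) and 0.23 without replicate 2 (adjusted p = 1).

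Having every library of FGF and E1728G above every other library was seen in 2 of the 9 receptors, PYL2 and PYL6, and in 2.15% of all genes tested. That pattern was looked for after the values had been seen. Most guard cell markers also had higher means in the late groups than in SSY. Against SSY, 8 of 8 markers had positive differences in FGF (median 1.84) and 7 of 8 in E1728G (median 1.58). In each comparison 0 of the 8 passed, and 4 were at an unadjusted limma p under 0.05. The same looser threshold took 16.4% of all genes tested for FGF and 16.05% for E1728G. The part of these markers in the receptor differences was not tested. Fewer cells of a type and less transcript per cell cannot be told apart in such sorted pools.

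Without the 3 SSY libraries, an F test over the remaining 4 groups kept PYL6 past the threshold (adjusted p = 0.0474) and not PYL2 (adjusted p = 0.0894). The 5-group call of PYL6 also ended without MG replicate 2 (adjusted p = 0.0502) and without FGF replicate 1 (adjusted p = 0.081), whereas PYL2 passed in all 11 fits that left out 1 library, with adjusted p between 0.00813 and 0.0461. For the test over the 4 stages, PYL2 missed without SSY replicate 2 (adjusted p = 0.0529), and PYL6 missed in 5 of 11 such fits, those without SSY replicate 2 (adjusted p = 0.0572), MG replicate 1 (0.0518), MG replicate 2 (0.0648), FGF replicate 1 (0.0798) or FGF replicate 2 (0.0537).

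**Figure D2:**
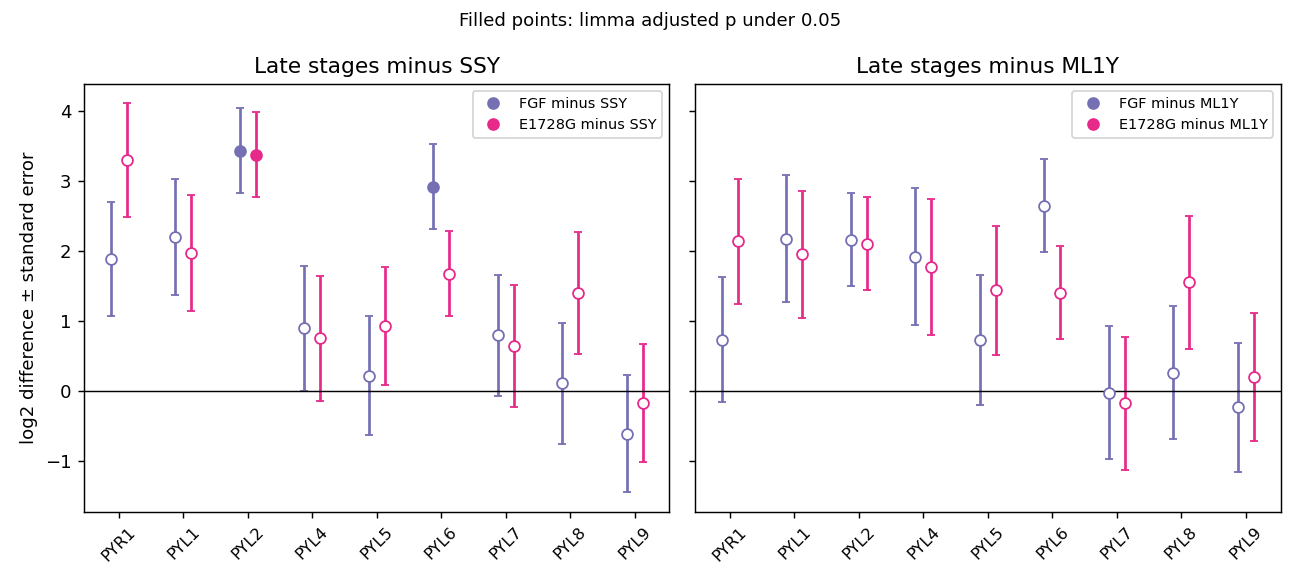
Log2 difference, with the standard error of the fit, of FGF and of E1728G from SSY on the left and from ML1Y on the right, for each receptor. PYL2 in both late groups and PYL6 in FGF are the filled points, all against SSY. The remaining points are open, and 3 of the 4 against SSY for PYL7 and PYL8 lie under 1 log2 unit.

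PYR1, the receptor through which the synthetic agonist pyrabactin led to the family, and its close relative PYL1 had a value far above its replicate in 1 library each. PYR1 stood at 9.71 in E1728G replicate 1 and at 6.11 in replicate 2. The other PYR1 values were 4.45, 4.16 and 5.25 in SSY, 5.68 and 4.73 in MG, 6.15 and 6.86 in FGF, and 6.36 and 5.20 in ML1Y. E1728G replicate 2 thus lay inside the range of the epidermis, and only replicate 1 stood apart.

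The PYR1 difference of E1728G from SSY was 3.29 ± 0.82 (limma adjusted p = 0.0516). From ML1Y it was 2.13 ± 0.89 (adjusted p = 0.311), and it fell to 0.33 without E1728G replicate 1, while without replicate 2 it was 3.93 (adjusted p = 0.0234). The difference from SSY was 1.49 without E1728G replicate 1 (adjusted p = 0.46) and 5.09 without replicate 2, where it passed (adjusted p = 0.00578). A single library therefore sets the size of these values.

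PYL1 showed the same kind of split in FGF, with 8.42 in replicate 1 and 4.52 in replicate 2. In E1728G it had 7.03 and 5.47, in SSY 3.81, 4.90 and 4.13, in MG 4.56 and 4.45, and in ML1Y 4.17 and 4.43. Both E1728G libraries were above every SSY, MG and ML1Y library, whereas FGF replicate 2 was not. The PYL1 difference from ML1Y was 2.17 ± 0.91 in FGF (limma adjusted p = 0.327) and 1.95 ± 0.91 in E1728G (adjusted p = 0.386), the second of which was 1.17 without E1728G replicate 1. In FGF it was 0.22 without replicate 1 and 4.12 without replicate 2, where it passed (adjusted p = 0.0311).

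PYL4 and PYL5, with PYL6, form the second branch of the family, and mutant studies tie PYL4 and PYL5 to stomatal closure by carbon dioxide. PYL4 had 8.93, 9.47 and 10.81 in SSY, 9.24 and 12.27 in MG, 10.43 and 10.82 in FGF, and 10.25 and 10.71 in E1728G, and its lowest levels in the epidermis, at 8.81 and 8.62 in ML1Y. All 9 stage libraries were above both epidermis libraries, as was the case for 2.91% of all genes tested and for no other receptor. The log2 difference from ML1Y was 1.02 ± 0.89 in SSY, 2.04 ± 0.98 in MG, 1.91 ± 0.98 in FGF and 1.77 ± 0.98 in E1728G. None passed (limma adjusted p = 0.48 to 0.558). The MG value rests on replicate 2, and without it the difference was 0.53. The SSY value was 0.49 without SSY replicate 3.

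PYL5 had 5.78, 8.91 and 6.84 in SSY, 6.34 and 8.03 in MG, 8.06 and 6.73 in FGF, and 8.40 and 7.80 in E1728G. By mean it was also lowest in the epidermis, with 6.74 and 6.59 in ML1Y. E1728G alone had all its libraries above ML1Y, by 1.43 ± 0.93 (limma adjusted p = 0.618). The range inside SSY exceeded the range of the group means, which was 1.43.

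PYL7, PYL8 and PYL9 are the branch with introns, and PYL8 is best known from roots, where it promotes lateral root growth. PYL7 had 10.81 and 10.21 in FGF, 10.49 and 10.23 in E1728G, and 10.60 and 10.48 in ML1Y. MG was lower at 9.70 and 9.29, a difference from ML1Y of -1.04 ± 0.95 (limma adjusted p = 0.876). SSY spread from 8.47 to 11.64 with 9.06 between, a difference of -0.82 ± 0.87 (adjusted p = 0.635) that ran from -1.78 without SSY replicate 2 to -0.19 without SSY replicate 3. PYL7 had the smallest range of group means of the 9 receptors, 1.04 log2 units.

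PYL8 had 11.40 and 9.59 in E1728G, against 9.22 and 8.67 in ML1Y, a difference of 1.55 ± 0.95 (limma adjusted p = 0.588). It had 8.58, 8.06 and 10.65 in SSY, 9.85 and 9.31 in MG, and 9.69 and 8.72 in FGF. E1728G replicate 1 was the highest PYL8 library, as it was for PYR1, and without it the difference from ML1Y was 0.64. PYL9, which is known to promote leaf senescence and survival in drought, had its highest level in SSY replicate 3 (9.02), while the other SSY libraries had 6.31 and 5.49. In the remaining groups it had 6.66 and 4.98 in MG, 6.46 and 6.18 in FGF, 6.996 and 6.52 in E1728G, and 6.51 and 6.62 in ML1Y. Its largest group difference, MG minus SSY, was -1.12 ± 0.84 (adjusted p = 0.51) and was -0.08 without SSY replicate 3, -0.28 without MG replicate 2, -1.84 without SSY replicate 2 and -1.95 without MG replicate 1.

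Taken by group mean, 3 receptors were highest in FGF (PYL1, PYL2 and PYL6) and 3 in E1728G (PYR1, PYL5 and PYL8). PYL4 was highest in MG, PYL9 in SSY and PYL7 in ML1Y. No receptor had its lowest mean in FGF or E1728G. The lowest mean was in SSY for PYR1, PYL1 and PYL2, in MG for PYL6, PYL7 and PYL9, and in ML1Y for PYL4, PYL5 and PYL8. When the 5 groups were ordered by mean for each receptor, 0 of the 36 pairs of neighbouring groups passed (limma, adjusted over all genes). The neighbours closest to doing so were E1728G and MG for PYL2, which differed by 1.93 ± 0.67 at an unadjusted p of 0.0114 (adjusted p = 0.265).

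By comparison, 0 of 9 receptors passed in each stage against the epidermis. The share of all genes called was 5.55% for SSY, 1.61% for MG, 2.11% for FGF and 2.44% for E1728G. At an unadjusted p under 0.05 the count was 0 receptors for SSY, 0 for MG, 3 for FGF (PYL1, PYL2 and PYL6) and 3 for E1728G (PYR1, PYL1 and PYL2). That looser threshold took 19.6% of all genes tested for SSY, 10.7% for MG, 12.1% for FGF and 12.8% for E1728G. These comparisons share the ML1Y libraries. Between consecutive stages, 0 receptors passed for MG against SSY (2.12% of genes called, and PYL2 at an unadjusted p under 0.05), for FGF against MG (0.137% called, and PYL1, PYL2 and PYL6 at an unadjusted p under 0.05) and for E1728G against FGF (0.0101% called, and 0 receptors at an unadjusted p under 0.05). The shares of all genes at an unadjusted p under 0.05 were 17.4%, 8.35% and 3.54% for these 3 comparisons in the same order.

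Against SSY, 2 of 9 receptors passed in FGF (1.91% of genes called) and 1 in E1728G (2.13% called), all of them higher in the later stage. Against MG, 0 passed in E1728G (0.583% called), and PYR1, PYL2 and PYL6 were at an unadjusted p under 0.05, as were 10.04% of all genes. The standard errors of the receptor differences ran from 0.61 to 0.98 log2 units, so misses do not show that the levels were alike.

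Replicates of a group differed most in SSY, where the receptors' median range between libraries was 1.93 log2 units, against 0.95 in MG, 0.67 in FGF, 0.47 in E1728G and 0.19 in ML1Y. The widest ranges were 3.53 for PYL9 in SSY, 3.03 for PYL4 in MG, 3.89 for PYL1 in FGF, 3.60 for PYR1 in E1728G and 2.34 for PYL6 in ML1Y. SSY has 3 libraries and the others 2, which by itself widens a range.

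Levels of different receptors were compared per length, as the linear value (2 to the power of the deposited value) per kilobase of annotated exon. On that scale PYL7, PYL4 and PYL8 together made up 73.9% to 94.3% of the summed level of the 9 receptors. The median over the 11 libraries was 86.2%. The scale takes the inferred base 2 as given and assumes values not already divided by length. Reads of the overlapping gene AT4G01030 may count in the PYL7 shares, which was not tested. PYL7 made up 36.4% ± 4.6 of the sum in FGF and 28.4% ± 5.4 in E1728G (SD, n = 2 each). In SSY it ranged from 9.47% to 71.2% and in MG from 11.2% to 36.2%. In ML1Y it made up 59.6% ± 2.9 (n = 2). PYL7 was the largest single receptor in both ML1Y libraries, in SSY replicates 1 and 2, and in replicate 1 of MG and of FGF.

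PYL4 made up 34.9% ± 12.2 in FGF and 28.3% ± 14.6 in E1728G, against 14.5% ± 0.17 in ML1Y (SD, n = 2 each). In MG replicate 2 it alone held 75.5% of the receptor level. The top receptor was PYL8 in E1728G replicate 1 (31.3%) and either PYL7 or PYL4 in the other 10 libraries.

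The pairing receptors PYR1, PYL1 and PYL2 together held 18.3% and 5.96% in E1728G and 11.04% and 7.83% in FGF. They held 1.12% to 5.91% in MG, 1.13% to 3.23% in SSY, and 4.598% and 3.73% in ML1Y. Every late library was above every other library on this share, narrowly so for E1728G replicate 2 against MG replicate 1. In E1728G replicate 1 PYR1 alone held 13.8%, and in FGF replicate 1 PYL1 alone held 6.78%. These are the single high values described above, so the separation leans on them. PYL2 by itself was 3.44% ± 0.98 in FGF and 2.81% ± 0.42 in E1728G, against 1.22% ± 0.22 in ML1Y (SD, n = 2 each). MG replicate 1, at 2.84%, lay among the late libraries on the PYL2 share, which ran from 2.51% to 4.14% in them. PYL6 was 3.40% ± 0.56 in FGF and 1.28% ± 0.52 in E1728G, against 1.11% ± 0.99 in ML1Y (n = 2 each). Both receptors that passed the F tests were thus minor parts of the pool.

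**Figure D3:**
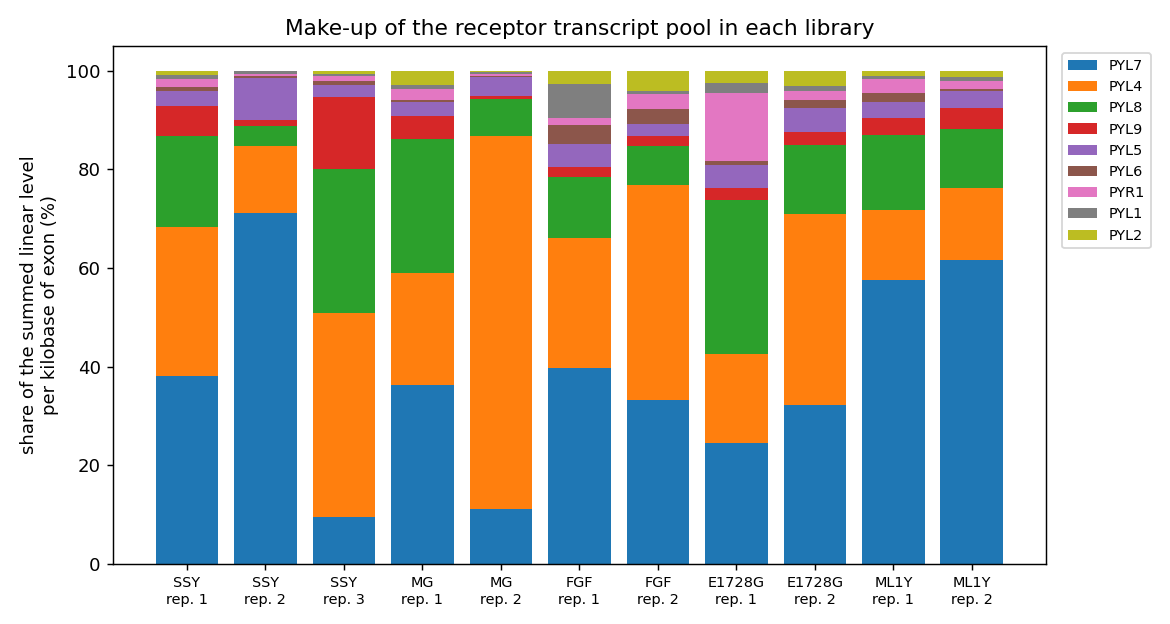
Share of each receptor in the summed linear level per kilobase of exon of the 9 receptors, as stacked bars adding to 100% for each library. PYL7 takes 57.5% and 61.6% in the ML1Y libraries, and PYL4 75.5% in MG replicate 2.

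The other 5 PYL genes of the family were close to the bottom of the scale. PYL11, PYL12 and PYL13 did not pass the minimum for testing and had no group mean above 2.65. PYL3 was between 1.89 and 3.44 in all libraries. PYL10 was at 7.54 in MG replicate 2 and at 2.90 in MG replicate 1, and ran from 2.70 to 4.03 in the other groups. It passed in no comparison, with a difference between MG and ML1Y of 1.90 ± 0.99 (limma adjusted p = 0.557). MG replicate 2 was also the highest library for PYL4.

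The partners of the receptors were read from lists of the pathway. Of 9 clade A PP2C phosphatases, the targets of the receptors, 1 passed against the epidermis: HAB2 fell by 2.57 on the log2 scale in SSY, to 5.83 ± 0.26 (SD, n = 3), against 8.40 ± 0.23 in ML1Y (n = 2; limma adjusted p = 0.0234). The comparison of SSY with ML1Y called 5.55% of all genes tested, 4.75% of those tested being lower in SSY. The median difference of the 9 phosphatases from ML1Y was -0.46 in SSY, -0.50 in MG, 0.61 in FGF and -0.32 in E1728G. For the 9 receptors it was -0.02, 0.17, 0.72 and 1.55 in the same order, and for all genes tested it lay between 0.03 and 0.06. The receptor median in E1728G is the difference of PYL8, which was 0.64 without E1728G replicate 1.

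Receptor and phosphatase sums were set side by side per kilobase of exon. The ratio of the receptor sum to the PP2C sum was 0.87 to 2.202 in SSY, 0.65 and 1.18 in MG, 1.25 and 0.37 in FGF, 1.41 and 0.97 in E1728G, and 0.88 and 0.66 in ML1Y. FGF held both the lowest ratio of all libraries and one above the epidermis, so the ratio did not separate the groups.

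The 3 SnRK2 kinases SNRK2.2, SNRK2.3 and OST1, the last of which opens the way to stomatal closure in guard cells, all had positive differences in MG, FGF and E1728G, with medians of 0.81, 1.303 and 1.31, and 0 passed. In SSY 2 of 3 were positive and 0 passed. OST1 was at 10.09 ± 1.70 in FGF and 9.62 ± 0.43 in E1728G, against 8.18 ± 0.16 in ML1Y (SD, n = 2 each). Of 5 ABF and ABI5 transcription factors 0 passed in any stage, and all 5 had negative differences in SSY (median -1.15).

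Of 12 abscisic acid responsive genes 2 passed, both lower in SSY. Calls in that comparison were mostly in this direction, with 1418 genes lower in SSY (4.75% of those tested) and 239 higher. They were RD20, a caleosin of lipid bodies that drought induces, which fell by 3.28 (adjusted p = 0.0152), and HB12, a homeodomain factor, which fell by 2.94 (limma adjusted p = 0.0119). The median of the list was -1.17 in SSY, -0.92 in MG, -0.24 in FGF and 0.04 in E1728G. KIN1 and COR6.6 in this list are close copies, so the split of their reads is uncertain. Of 8 guard cell targets such as the anion channel SLAC1 and the oxidase RBOHF, 0 passed in any of the 4 stages, with medians of 0.31, -0.37, 0.81 and 0.94 from SSY to E1728G.

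**Figure D4:**
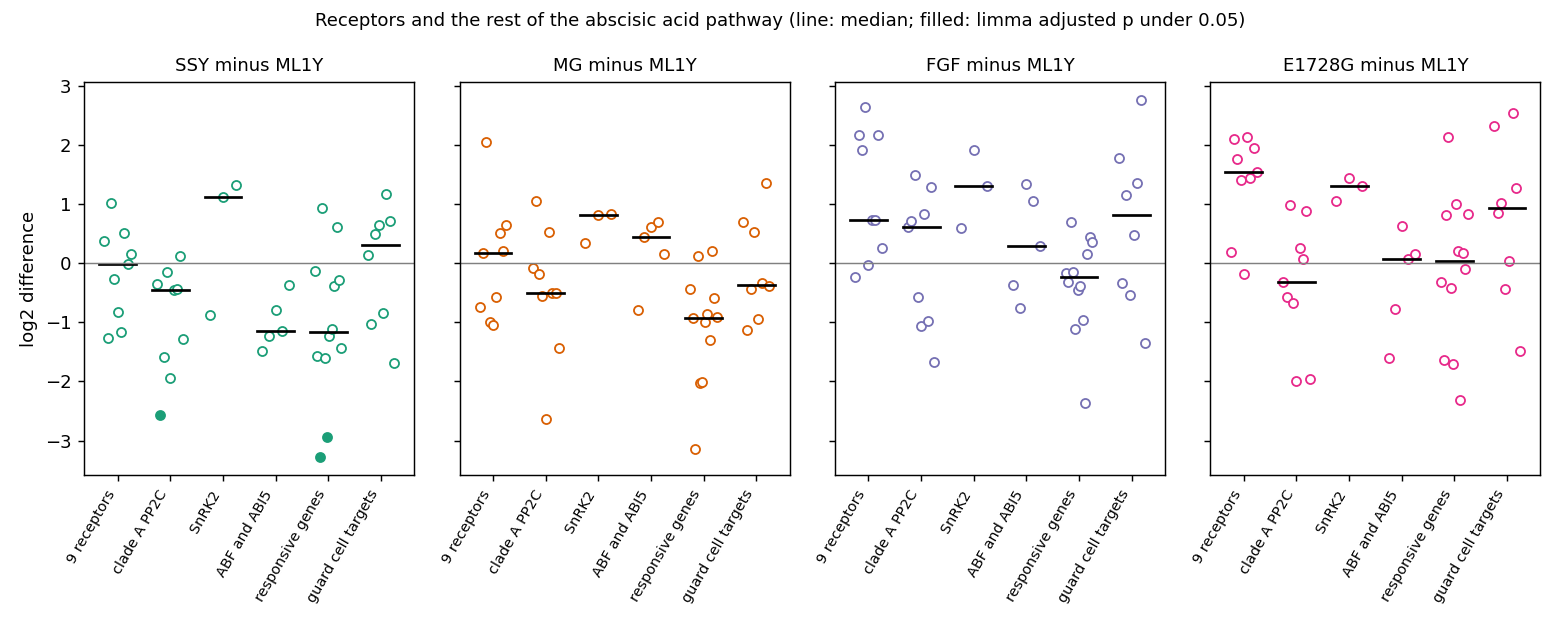
Log2 difference from ML1Y of each gene of the receptor set and of 5 lists of the pathway, in 1 panel per stage, with the median as a line. Filled points passed the threshold: HAB2, RD20 and HB12 in SSY. The receptor median was 1.55 in E1728G, where it is the value of PYL8, and -0.02 in SSY.

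Among the 9 receptors the highest correlation over the 11 libraries was between PYR1 and PYL2 (Pearson r = 0.77), followed by PYL2 and PYL6 (0.71) and PYR1 and PYL8 (0.69). The lowest was between PYL7 and PYL9 (-0.46), the pair with the most similar coding sequence. Among 10238 other tested genes with a symbol, the genes most like PYL2 over the 11 libraries were GLB3, a truncated haemoglobin (r = 0.95), mtHsc70-1, a mitochondrial chaperone (0.94), and PLDP1, a phospholipase D (0.94). GLB3 had mean levels of 7.07 in FGF and 7.56 in E1728G, against 4.84 in SSY. The genes most like PYL6 were WAKL10, a wall-associated kinase-like gene (0.91), the phosphatase gene PP2C74 (0.91) and the glycosyltransferase gene UGT73C1 (0.90). WAKL10 averaged 8.36 in FGF and 7.80 in E1728G, against 5.61 in MG. All these libraries share the group structure and the normalization, so such values describe likeness of pattern only.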

How the data were processed

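The authors deposited log2-scale normalized expression values of 33602 genes in 11 libraries, of which 33600 had a value. Bowtie2 and DESeq2 and the build TAIR10 are named, without versions, per the submitters' processing notes. The sources used here do not give the counter, the annotation or the transformation. Base 2 was inferred, since 2 to the power of the values sums to 17236592 to 25175463 per library. Values hold no whole-number steps, so depth and counting error are unknown, and if the transformation compressed the low end of the scale, low genes would show smaller differences.

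Tests covered genes that reached a linear value of 10 (3.32 in log2) in 2 or more libraries. Deposited values were used as they are in limma-trend (limma 3.58.1, R 4.3.3), with 1 fit of all 11 libraries, Benjamini-Hochberg adjustment within each comparison and a two-sided threshold of 0.05. The design foresaw 7 comparisons. The other 3 pairs of groups (FGF and E1728G against SSY, and E1728G against MG) were read from the same fit after the values were seen. The fit was tested on simulated data. Genes named are the 9 receptors, pathway genes that passed against ML1Y, the other PYL genes, and the 3 genes most correlated with each receptor that passed the F test. Members named to show what a list holds (SNRK2.2, SNRK2.3, SLAC1, RBOHF, KIN1, COR6.6), OST1 levels, AT4G01030 and the markers EPF2, TGG1, HT1, SLAC1 and MYB60 were added after their values were seen. The members and lists were chosen with earlier results of these data known.

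Symbols, exon lengths, overlaps and coding sequences come from RefSeq TAIR10.1 (Biopython 1.88), matched on locus code for 32835 genes and all 9 receptors. That assembly is named differently from the authors' build, so no genome coordinates are given. Same-numbered replicates did not deviate together across genes (correlation -0.08 to 0.03 over 20 pairs of libraries, 0 over 0.1), so numbers were not treated as pairs. In groups of 2 libraries the deviations mirror each other, so values between such groups repeat and the 20 are not independent.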

Additional observations from a re-analysis of the deposited data

How the results depend on the processing

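Alternatives were no filter, a filter at 50, 1 added on the linear scale, quantile normalization, a fit of only the groups compared, the replicate number as a block, each library left out in turn, and, chosen after seeing the data, leaving out the 3 SSY libraries. With the replicate block the receptors called were 2 over 5 groups, 2 over the 4 stages, 2 in FGF against SSY and 1 in E1728G against SSY, as without it, and no call changed. Receptor counts moved as follows. With the filter at 50, 1 receptor passed for FGF against ML1Y and for FGF against MG (0 in each otherwise), and 2 for E1728G against SSY (1 otherwise). Of the 18940 genes tested in that fit, 701, 62 and 889 were called in these comparisons, in the same order. In fits of only the groups compared, 1 passed for FGF and 1 for E1728G against ML1Y, and 0 for either against SSY. Without the SSY libraries 1 receptor passed the F test over the other 4 groups. When single libraries were left out, the counts ran from 0 to 1 for FGF and for E1728G against ML1Y and for E1728G against MG, 0 to 2 for FGF and for E1728G against SSY, 1 to 3 over 5 groups and 0 to 3 over 4 stages. They stayed at 0 for SSY and MG against ML1Y, for MG against SSY, for FGF against MG, for E1728G against FGF and for neighbouring groups. No printed receptor difference changed sign under any alternative run. The causes were not tested. The count of all genes called differed by more than 1.5 times in several fits. For FGF against ML1Y it was 629, with 89 to 722 across the fits without 1 library and 1455 in the fit of these groups, and for E1728G against ML1Y 728, with 94 to 827 and 1208. Against SSY it was 570 for FGF and 637 for E1728G, with 3 to 857 and 24 to 885 across the fits without 1 library, and 0 in either limma fit of these groups alone (3888 and 3565 genes at an unadjusted p under 0.05). Depth is unknown, so what it limits could not be stated.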
